A study of Mus musculus with 4 samples.

Results

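The AP-1 and early response group was followed in small-intestinal cells of mice through 10 genes: Fos, Fosb, Fosl1, Fosl2, Jun, Junb, Jund, Atf3, Egr1 and Ier3. They were taken as every probe on the array whose gene name, or current symbol by RefSeq accession, was one of these names, which gave 12 of 41174 probes. Of the 10 genes, 9 were bright enough to test, among 12437 genes tested in all. Total RNA of enterocytes taken fresh from the small bowel was measured on 1-colour arrays, in 2 samples of wild-type (WT) mice and 2 samples of IKKb(EE)IEC mice. IKKb(EE)IEC mice carry in intestinal epithelial cells a form of the kinase IKKb that is constantly active, because glutamates (EE) stand in place of the serines that are phosphorylated when the kinase is switched on. The controls were WT littermates. Age, sex, the number of mice behind a sample and the promoter that drives the active kinase are not given in the sources used here.

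AP-1 is a dimer of 2 basic leucine zipper proteins that binds DNA. JUN proteins pair with each other or with FOS proteins, whereas FOS proteins need a JUN partner, and ATF3 joins the same network and often acts as a repressor. The genes for these proteins and for the zinc finger factor EGR1 are early response genes: growth factors, cytokines, stress and the handling of tissue switch them on within minutes through MAP kinases, and their transcripts decay fast. IER3 is an early response protein but not a transcription factor. It acts on cell survival and its gene is a known target of NF-kB, the factor that IKKb activates. In the gut, AP-1 serves crypt proliferation and the response to injury.

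All values below are log2 of the processed spot signal, set relative to the 75th percentile of the same array, and a difference is the IKKb(EE)IEC mean less the WT mean, with its standard error (SE) from a limma fit over all genes (n = 2 arrays per genotype). A gene is called at an adjusted p below 0.05. The unscaled 75th percentile was 60.3 and 66.1 for WT against 94.6 and 107.8 for IKKb(EE)IEC, so that scaling shifts every gene down in IKKb(EE)IEC by more than in WT. The median difference of all genes was -0.12. All 11 epithelial markers were well above background on every array. Of these Fabp2 (-1.56 ± 0.23, adjusted p by limma = 0.0161) and Lct (-1.26 ± 0.23, adjusted p = 0.0284) fell and 9 did not pass. Of 4 measured pancreatic markers Clps fell (-4.01 ± 0.43, adjusted p = 0.00644), while Cel (-0.49), Ctrb1 (-0.49) and Cela1 (0.01) did not pass. Cela3b, Cpa1, Cpb1, Pnlip and Prss2 were not well above background on any array. Of 11 measured macrophage and dendritic cell markers 6 rose and 1, Lyz2, fell. Adgre1, C1qa, C1qc and Fcgr1 rose but entered the test only through the IKKb(EE)IEC arrays, and Itgax and Ms4a7 were above background on 1 WT array. C1qb (-0.15), Csf1r (0.34) and Cd14 (0.86), above background on both, did not pass. None of 11 T and NK cell markers was called. The summed linear level of all 13 listed macrophage and dendritic cell markers was 931 and 2441 in WT cells, against 325 and 322 in IKKb(EE)IEC cells. Lyz2 made up most of this sum. For the 12 markers other than Lyz2 the sum was 9.11 and 10.6 in WT cells, against 32.0 and 25.2 in IKKb(EE)IEC cells. The direction of the sum thus depends on whether Lyz2 is counted. Mrc1 was not well above background on any array. Liver transcripts were well above background in WT replicate 2 alone, 4 of 5 of them. Over all genes the correlation between replicates was 0.978 in WT and 0.994 in IKKb(EE)IEC. With 2 arrays against 2, an exact permutation test of a single value cannot go below a two-sided p of 0.333.

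Junb was the member that rose in IKKb(EE)IEC. Of the 9 members that could be tested 1 rose, none fell and 8 did not pass, where 15.2% of the 12437 genes were called, 8.02% as higher and 7.2% as lower. At an unadjusted p below 0.05 stood 5 of the 9, against 38.1% of all genes. The share of the members that was called is thus near that of all genes. Both IKKb(EE)IEC arrays lay above both WT arrays for Fosb, Junb, Jund, Egr1 and Ier3 (28.3% of all genes) and below them for Fosl2 and Jun (40.8% of all genes), while Fos and Atf3 overlapped. The genotypes were thus separate for 7 of 9 members, against 69.1% of all genes. The median difference of the 9 was 0.70. Of these, Ier3 passed the filter on dim probes only through its IKKb(EE)IEC arrays, where it was high. Well above background on every array were 7 members, and these had a median of 0.20, against -0.17 for all genes under the same filter. The RNA comes from whole cell samples, so fewer cells of a type and less RNA per cell cannot be told apart. The part that macrophage RNA has in any of these values was not tested.

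**Figure D1:**
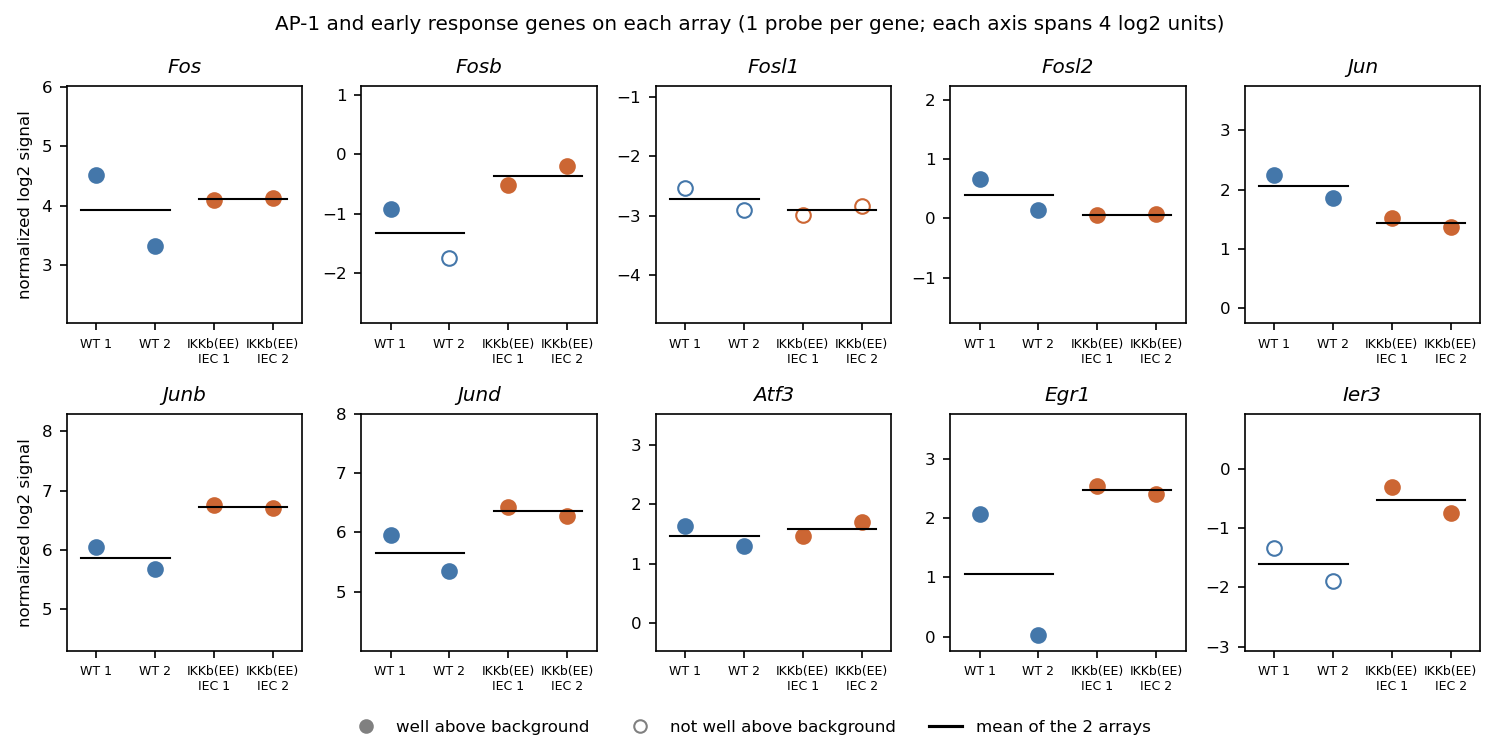
Normalized log2 signal (y axis, 4 log2 units in each panel) of 1 probe per gene on the 2 WT and 2 IKKb(EE)IEC arrays, with lines at the mean of each genotype and open circles where the probe was not well above background. Junb, Jund, Fosb, Egr1 and Ier3 are higher on both IKKb(EE)IEC arrays, Jun and Fosl2 are lower, and the 2 WT arrays of Egr1 lie 2.04 apart.

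The JUN proteins can pair among themselves, and JUNB is a weaker activator than JUN that restrains it in many settings. The Junb probe (chromosome 8, 87867087 to 87867146, mm8) read 6.04 and 5.68 in WT cells, against 6.75 and 6.71 in IKKb(EE)IEC cells. Both IKKb(EE)IEC arrays were thus high, and the genotypes lay further apart than the arrays of either one. Junb rose by 0.87 ± 0.20 (SE), or 1.83-fold (adjusted p by limma = 0.0432). A second Junb probe that overlaps the first in sequence position (87867049 to 87867108) read 6.001 and 5.57 in WT cells, against 6.59 and 6.42 in IKKb(EE)IEC cells. Its difference of 0.72 ± 0.22 missed the threshold in the fit over all probes (adjusted p by limma = 0.0761), where the first probe passed (adjusted p = 0.0444) and 13.9% of all probes were called. The Junb difference stayed positive whichever array was omitted. It was 1.05 and 0.69 on dropping WT replicate 1 or 2, and 0.85 and 0.89 on dropping IKKb(EE)IEC replicate 1 or 2. Such a fit leaves 1 array in a genotype and takes the spread from the other genotype alone. Whether Junb passed in these fits therefore says little about Junb itself. Among settings that kept every array, the call of Junb was lost with no filter on dim probes (adjusted p by limma = 0.0628). It was also lost with the mean of both Junb probes (0.79, adjusted p = 0.0546). Taking the replicate numbers as a block lost it too (adjusted p = 0.0513), though the labels do not say that they pair samples. The same held for the normexp background correction, under which limma called no gene (171 at an unadjusted p below 0.05). In all, Junb was called in 7 of 13 alternatives, with values from 0.69 to 1.16. This count includes the fits with 1 array omitted.

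Jund, the JUN protein that is made steadily in most cells, gave the same direction with a larger error. Its probe (chromosome 8, 73629526 to 73629585, mm8, listed in the files under the older name Jund1) read 5.95 and 5.35 in WT cells, against 6.43 and 6.28 in IKKb(EE)IEC cells. The genotypes did not overlap, but the gap between the WT arrays, 0.59, was nearly as large as the difference of 0.70 ± 0.24 (adjusted p by limma = 0.1001). The difference was 1.00 without WT replicate 1 and 0.41 without WT replicate 2.

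Jun, the partner that gives AP-1 most of its activating strength, lay the other way. The probe of Jun (chromosome 4, 94541191 to 94541250, mm8) was printed in 10 spots on each array. Their mean was 2.25 and 1.86 in WT cells, against 1.52 and 1.36 in IKKb(EE)IEC cells. The SD between the 10 spots was 0.08 to 0.09 on every array. The lowest WT spot, at 1.68, was above the highest IKKb(EE)IEC spot, at 1.66, so that the genotypes separated also by single spots. Spots share the RNA of their array and are no replicates of a genotype. Over the arrays, the difference of -0.62 ± 0.21 missed the threshold (adjusted p by limma = 0.0922). It was -0.81 without WT replicate 2, -0.42 without WT replicate 1, and between -0.43 and -0.31 in the authors' value table and with normexp. Before scaling, the mean signal of Jun was 288 and 240 for WT against 272 and 278 for IKKb(EE)IEC, with overlap between genotypes. The lower level of Jun is therefore one relative to the other transcripts of the same array.

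Junb and Jun lay further apart within each IKKb(EE)IEC array than within each WT array, a comparison in which the scaling cancels. This pair was chosen after its values were seen. The log2 signal of Junb minus that of Jun was 3.79 and 3.82 in WT cells, against 5.23 and 5.35 in IKKb(EE)IEC cells, a shift of 1.48. In this quantity the arrays of each genotype lay close together. Junb was higher and Jun lower on both IKKb(EE)IEC arrays, so this quantity had to separate the genotypes. Its separation is therefore no further test, and no p-value is given for it.

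The promoters of these opposite members are shown because the levels of the 2 genes lay in opposite directions, of which that of Junb alone passed the test. They are the 250 bases before the RefSeq start site in the table for GRCm38.p6, 5′ to 3′ on the strand of the gene, for Junb at chr8:84978749-84978998 (minus strand) and for Jun at chr4:95052223-95052472 (minus strand). Capitals would mark a match to any of the motifs searched, and neither sequence holds one.
Junb: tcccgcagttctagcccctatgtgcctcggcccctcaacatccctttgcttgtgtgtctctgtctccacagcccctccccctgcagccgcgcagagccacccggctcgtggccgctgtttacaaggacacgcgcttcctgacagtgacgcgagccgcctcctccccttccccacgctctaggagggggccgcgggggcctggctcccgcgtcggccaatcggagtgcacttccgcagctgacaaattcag
Jun: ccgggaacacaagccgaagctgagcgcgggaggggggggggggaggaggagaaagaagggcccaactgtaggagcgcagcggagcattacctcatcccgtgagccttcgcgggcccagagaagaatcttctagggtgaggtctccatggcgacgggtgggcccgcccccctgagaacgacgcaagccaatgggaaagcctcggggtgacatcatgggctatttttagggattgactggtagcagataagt
The motifs searched on both strands were the AP-1 site TGAGTCA, the cyclic AMP response element TGACGTCA, the NF-kB consensus, the CArG box of the serum response factor, and the EGR sites GCGTGGGCG and GCGGGGGCG. TATAAA was searched on the strand of the gene alone. Of 32851 promoters of this length, 4.46% held the AP-1 site, 1.55% the cyclic AMP element, 7.25% the NF-kB consensus, 1.47% the CArG box, 3.06% an EGR site and 7.59% TATAAA. The table had a promoter for 8 of the 10 members, all but Fosl1 and Egr1. None of the 8 held the AP-1 site, the cyclic AMP element or the CArG box in this window. For the AP-1 site and the cyclic AMP element only the exact letters above were searched, so variants of them were not counted. The NF-kB consensus was in 4 of them (Fos, Fosb, Fosl2 and Ier3), an EGR site in 2 (Fosb and Fosl2) and TATAAA in 1 (Fos). The share of G and C in the 8 was 47.6% (Jund) to 68.8% (Fosb), against a median of 52.4% over all promoters. Its part in these matches was not tested.

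The FOS proteins showed no common direction. The Fos probe (chromosome 12, 86366053 to 86366112, mm8), also printed in 10 spots, read 4.52 and 3.32 in WT cells, against 4.10 and 4.13 in IKKb(EE)IEC cells. The IKKb(EE)IEC arrays lay between the WT arrays. The SD between spots was 0.06 to 0.09, so the gap of 1.20 between the WT arrays was far larger than the error of the spots, and larger than the gap of 97.0% of all genes. The difference between genotypes was 0.20 ± 0.40 (adjusted p by limma = 0.730), with a 95% confidence interval of -0.79 to 1.19. This interval holds a 2-fold increase and leaves out a 2-fold decrease. The difference was 0.80 without WT replicate 1 and -0.40 without WT replicate 2, so that the direction depends on which WT array is used.

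**Figure D2:**
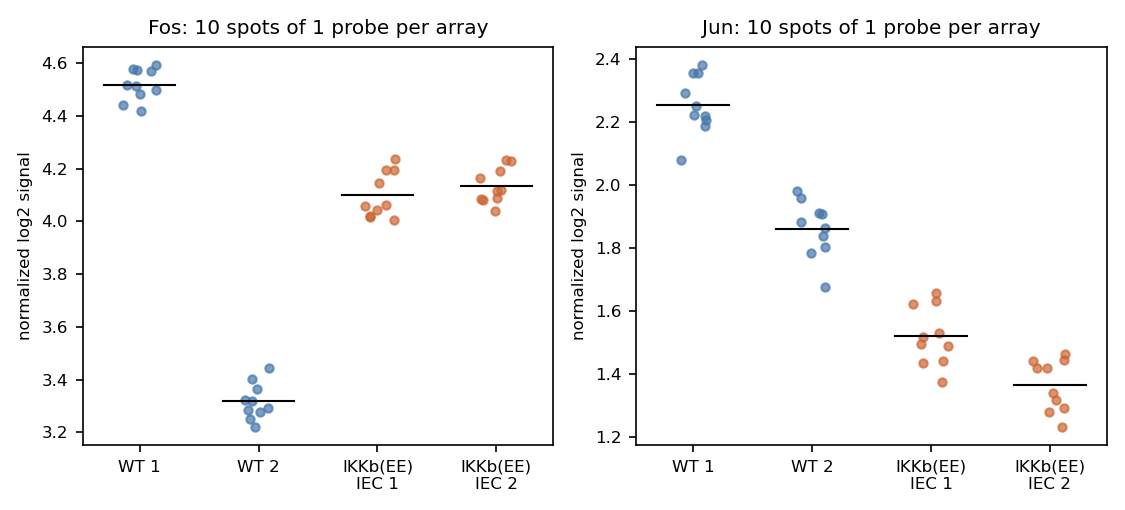
Normalized log2 signal (y axis) of each of the 10 spots that carry the Fos probe and the Jun probe, on the 2 WT (blue) and 2 IKKb(EE)IEC (orange) arrays, with a line at the mean of the spots. Spots of Fos on the 2 WT arrays lie above and below those of both IKKb(EE)IEC arrays, and spots of Jun are higher on both WT arrays than on both IKKb(EE)IEC arrays.

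Fosb, an activating FOS protein, read -0.92 and -1.74 in WT cells, against -0.52 and -0.20 in IKKb(EE)IEC cells (chromosome 7, 18461650 to 18461709, mm8). Its probe was not well above background in WT replicate 2, and both IKKb(EE)IEC arrays were higher than both WT arrays. The difference of 0.97 ± 0.31 missed the threshold (adjusted p by limma = 0.0864). It shrank to 0.24 to 0.36 in the authors' value table and with normexp, whether fitted to the signals as they are or after the darkest spots were raised (repaired normexp). Without WT replicate 1, when no WT array was above background, IKKb(EE)IEC was at least 2.04-fold higher. Without WT replicate 2 the difference was 0.56. The Fosb promoter is shown because it holds 2 kinds of motif, at chr7:19310046-19310295 (GRCm38.p6, minus strand). Capitals mark the NF-kB consensus, 188 bases before the start, and an EGR site, 50 bases before it.
Fosb: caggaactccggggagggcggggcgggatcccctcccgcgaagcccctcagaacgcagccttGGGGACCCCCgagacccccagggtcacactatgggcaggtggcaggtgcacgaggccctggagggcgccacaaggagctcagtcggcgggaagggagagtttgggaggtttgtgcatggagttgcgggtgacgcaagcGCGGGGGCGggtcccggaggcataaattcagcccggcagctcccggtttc

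Fosl2, a FOS protein without the strong activating domain, read 0.67 and 0.13 in WT cells, against 0.05 and 0.07 in IKKb(EE)IEC cells at the probe on chromosome 5 (32429296 to 32429355, mm8). The value of WT replicate 2 lay close to both IKKb(EE)IEC arrays. The difference of -0.34 ± 0.23 did not pass (adjusted p by limma = 0.316), and was -0.61 without WT replicate 2 and -0.07 without replicate 1. Before scaling, the signal of this probe was 95.9 and 72.4 for WT against 98.0 and 113.5 for IKKb(EE)IEC. Its order between genotypes was thus reversed, and the lower level is one relative to the other transcripts of the same array. A second Fosl2 probe (32433832 to 32433891) was not well above background on any array. The same held for Fosl1, a FOS protein linked to invasive epithelium, whose probe (chromosome 19, 5455496 to 5455555, mm8) read -2.53 and -2.90 in WT cells, against -2.99 and -2.84 in IKKb(EE)IEC cells. Fosl1 and the second Fosl2 probe were therefore not tested, and their values do not show that the transcripts are absent.

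Atf3, the stress-induced member that often represses, read 1.64 and 1.31 in WT cells, against 1.46 and 1.70 in IKKb(EE)IEC cells (chromosome 1, 192871283 to 192871342, mm8). The genotypes overlapped. The difference was 0.11 ± 0.20 (adjusted p by limma = 0.708), with a 95% confidence interval of -0.40 to 0.62. This interval leaves out a 2-fold change in either direction.

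Ier3, the NF-kB target of the group, was dim. Its probe (chromosome 17, 35430636 to 35430695, mm8) read -1.34 and -1.89 in WT, not well above background on either array, and -0.30 and -0.75 in IKKb(EE)IEC, well above background on both. The genotypes did not overlap. The fitted difference of 1.09 ± 0.27 missed the threshold (adjusted p by limma = 0.0513). Since WT has only a bound, IKKb(EE)IEC was at least 1.76-fold higher on this scale. For this bound, the WT level on each array was the lowest signal among probes well above background, or the Ier3 signal where that was higher. Ier3 was at least 1.82-fold higher in IKKb(EE)IEC with WT replicate 1 left out and 1.71-fold with WT replicate 2 left out. With IKKb(EE)IEC replicate 1 or 2 left out it was at least 1.51-fold and 2.06-fold higher. With the normexp background correction and in the authors' value table its difference was 0.20 to 0.36 and did not pass. The Ier3 promoter, at chr17:35821463-35821712 (GRCm38.p6, plus strand), is shown because the gene is known as a target of NF-kB. Capitals mark the NF-kB consensus, 92 bases before the start.
Ier3: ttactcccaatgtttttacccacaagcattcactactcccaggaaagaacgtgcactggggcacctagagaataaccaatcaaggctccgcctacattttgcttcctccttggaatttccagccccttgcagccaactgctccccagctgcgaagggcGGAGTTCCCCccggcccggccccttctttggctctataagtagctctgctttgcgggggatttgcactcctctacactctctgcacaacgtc

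Egr1 had the largest difference of the 9 and also the largest error. Its probe (chromosome 18, 34990715 to 34990774, mm8) read 2.07 and 0.03 in WT cells, against 2.54 and 2.41 in IKKb(EE)IEC cells. Both IKKb(EE)IEC arrays were higher than both WT arrays, but WT replicate 1 lay nearer to them than to WT replicate 2. The gap of 2.04 between the WT arrays was larger than that of 99.4% of all genes. The difference of 1.42 ± 0.64 did not pass (adjusted p by limma = 0.162). It was 2.44 without WT replicate 1 and 0.40 without WT replicate 2, so that WT replicate 2 sets most of its size. In the authors' value table it was 0.84.

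The WT samples differed from each other across the whole group. All 9 members were lower in WT replicate 2 than in WT replicate 1, by 0.34 (Atf3) to 2.04 (Egr1), while 45.7% of all genes tested were lower in replicate 2. The count was 9 of 9 also with the median shift, quantile normalization, the repaired normexp correction and the authors' value table. The median size of the WT gap was 0.55 for the members and 0.29 for all genes. In IKKb(EE)IEC the corresponding gaps were 0.14 and 0.15, and 5 of the 9 members were lower in replicate 2 (1 to 7 under the other scalings). The order of replicates has no meaning of its own. In WT replicate 2 were lower 18 of 28 other early response genes, 8 of 11 genes of AU-rich decay, 5 of 6 cofactors of serum response and EGR factors and 6 of 10 heat shock genes. The same held for 10 of 19 other basic leucine zipper genes, 11 of 19 MAP kinase cascade genes and 7 of 11 AP-1 targets, against 45.7% of all genes. The median size of the WT gap was 0.61 in the genes of AU-rich decay, above that of the members. Liver transcripts stood above background in the same WT replicate 2, and their part in this gap was not tested.

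**Figure D3:**
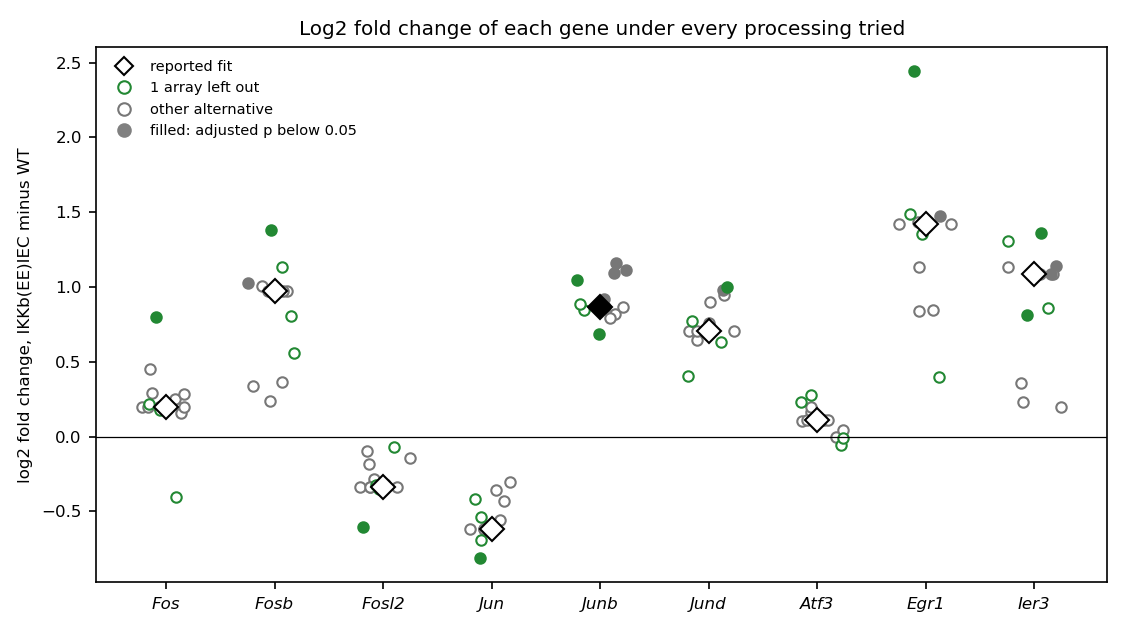
Log2 fold change (y axis, IKKb(EE)IEC minus WT) of each of the 9 measured members in the reported fit (diamonds), with 1 array left out (green) and under the other alternatives (grey), filled where the adjusted p by limma was below 0.05. Junb stays between 0.69 and 1.16, whereas Fos and Atf3 lie on both sides of 0 and Egr1 ranges from 0.40 to 2.44. For green points the lone array of a genotype is assumed to vary like the arrays of the other genotype.

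Few genes of proteins that pair with or compete against AP-1 were called, at a share near the 15.2% of all genes. Of 23 basic leucine zipper genes listed, 19 were measured, 1 rose, 2 fell and 16 did not pass (median 0.23, against -0.12 for all genes). Atf5, a stress-regulated factor, read 0.62 and 0.95 in WT cells, against 2.54 and 2.02 in IKKb(EE)IEC cells and rose by 1.49 ± 0.25 (adjusted p by limma = 0.0225). Nfil3, a repressor tied to the clock and to cytokines, fell by 1.41 ± 0.16 (adjusted p = 0.00843). The neighbour of Fos in the genome and inhibitor of AP-1, Jdp2, had a value of -0.10 ± 0.31.

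Other early response genes mostly did not pass. Of 33 listed, 28 were measured, 3 rose, 1 fell and 24 did not pass (median -0.05), where 15.2% of all genes were called. Arc, an early gene best known in neurons, read -1.69 and -1.44 in WT, not well above background, and 1.10 and 0.94 in IKKb(EE)IEC. It was at least 5.15-fold higher on this scale (adjusted p by limma = 0.00291). The log2 difference was smaller in the authors' value table (1.03) and with normexp (0.79, repaired 1.20). Phlda1 rose by 1.85 ± 0.44 and the kinase gene Plk3 by 1.51 ± 0.25 (adjusted p = 0.0484 and 0.0226). Sgk1, a kinase induced by corticosteroids that promotes sodium uptake, read 4.40 and 6.09 in WT cells, against 1.79 and 2.95 in IKKb(EE)IEC cells, and fell by 2.87 ± 0.64 (adjusted p = 0.0423). The genes most often named beside Fos and Egr1 had values of -0.19 (Ier2), 0.34 (Dusp1), 0.65 (Zfp36), -0.30 (Nr4a1), 0.20 (Egr2) and 0.03 (Myc), and none of these passed.

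Few of the kinases and cofactors upstream of the group passed the test, where 15.2% of all genes did. Of 24 MAP kinase cascade genes 19 were measured, and Map3k1, a kinase that feeds the JNK branch, was the one that rose, by 1.04 ± 0.19 (adjusted p by limma = 0.0290). It read 1.96 and 1.63 in WT cells, against 2.86 and 2.81 in IKKb(EE)IEC cells. The other 18 did not pass (median of the list 0.23), with Mapk14 at 0.69, Mapk8 at 0.62 and Mapk3 at -0.25. Of 8 cofactors of serum response and EGR factors 6 were measured. Nab1, a corepressor that binds EGR1, rose by 1.32 ± 0.22 (adjusted p = 0.0226), from 0.93 and 0.44 in WT to 1.99 and 2.01 in IKKb(EE)IEC. The serum response factor gene Srf had a value of 0.04. Early response transcripts are destroyed through AU-rich elements, and of 11 measured genes of this decay (13 listed) 1 fell, Zfp36l2, by 1.00 ± 0.18 (adjusted p = 0.0297), and 10 did not pass (median 0.23).

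**Figure D4:**
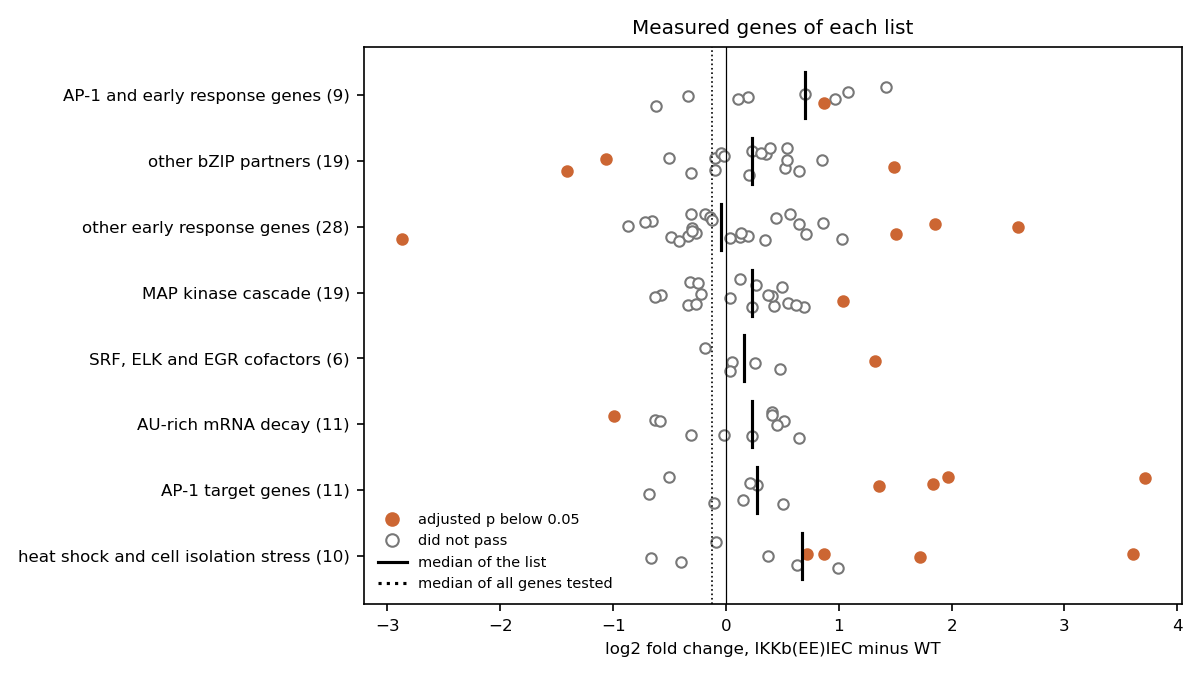
Log2 fold change (x axis, IKKb(EE)IEC minus WT) of every measured gene of each list (rows, number measured in brackets), filled where the adjusted p by limma was below 0.05, with the median of each list (solid) and of all genes tested (dotted, -0.12). The 9 AP-1 and early response genes lie between -0.62 and 1.42, and the widest spread is among other early response genes, from -2.87 (Sgk1) to 2.58 (Arc).

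Some textbook targets of AP-1 rose. Of 18 listed, 11 were measured, 4 rose, none fell and 7 did not pass (median 0.27). Of all genes 8.02% rose and 7.2% fell. Mmp9 and Mmp13 entered only through the IKKb(EE)IEC arrays. Of the 6 targets above background on all 4 arrays 1 rose and 1 fell, and 2 of 11 rose in the authors' value table. Areg, a ligand of the EGF receptor, read 1.67 and 0.78 in WT cells, against 5.16 and 4.71 in IKKb(EE)IEC cells and rose by 3.71 ± 0.34 (adjusted p by limma = 0.00448). Cd44, an adhesion receptor of crypt cells, rose by 1.83 ± 0.38 and passed the background flag in 1 WT replicate (adjusted p = 0.0379), with 0.69 in the authors' value table. The matrix metalloproteinase genes Mmp9 and Mmp13 were not well above background in WT. Mmp9 was at least 2.03-fold higher on this scale (adjusted p = 0.0496), but its log2 difference was 0.34 in the authors' value table. The mean level of Mmp13 in IKKb(EE)IEC lay below the lowest WT signal that is well above background, so no size can be given. Its call (adjusted p = 0.00499) was lost in the authors' value table (adjusted p = 0.0616). Targets such as Ccnd1 (0.27), Hbegf (0.51), Plaur (-0.51) and Timp1 (-0.68) did not pass. Of the alternatives that could be run, Areg was called in 12 of 13 and Mmp9 in 5 of 12, both with the same direction throughout. Several of these targets answer to other factors too, and Mmp9 and Cd44 are also made by macrophages. Of the measured macrophage and dendritic cell markers 6 rose and 1 fell in the same samples. That part was not tested.

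Heat shock genes, which like early response genes react to the isolation of cells, were measured beside them. Of 11 listed, 10 were measured, 4 rose, none fell and 6 did not pass (median 0.67), where 8.02% of all genes rose and 7.2% fell. Hspa1a read -1.46 and -2.40 in WT, not well above background, and 1.74 and 1.61 in IKKb(EE)IEC. It was at least 8.12-fold higher on this scale by its brightest probe (adjusted p by limma = 0.00441). The log2 difference was 2.53 as the mean over its 3 probes, 1.59 in the authors' value table and 1.27 with normexp (repaired 1.90). Its sequence is close to that of Hspa1b, so the probe may read both. Hsph1, Hspd1 and Hsp90aa1 rose by 1.72 ± 0.17, 0.87 ± 0.18 and 0.72 ± 0.17 (adjusted p = 0.00506, 0.0379 and 0.0464). Dnajb1 (-0.40) and Hspb1 (-0.66) did not pass. The rise of these genes lies in the same samples as that of Junb, and its part in that rise was not tested.

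For each member, the nearest measured protein-coding gene on either side in the RefSeq table was read, 20 genes in all, some with up to 3 unmeasured genes between. None rose and 2 fell, where 8.02% and 7.2% of all genes did. Those that fell were Ppm1n, 1 gene away from Fosb (-3.30 ± 0.59, adjusted p by limma = 0.0274) and Plb1 beside Fosl2 (-3.07 ± 0.61, adjusted p = 0.0341). The neighbours of Junb, Hook2 and Prdx2, had values of 0.24 ± 0.19 and -0.42 ± 0.17, and those of Ier3, Ddr1 and Flot1, of 0.39 ± 0.28 and 0.04 ± 0.21.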

How the data were processed

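Per the labels' protocols, Cy3-labelled cRNA from 250 ng RNA of each sample was hybridised to 1 array. Per the file headers, Agilent Feature Extraction 9.5.3.1 (design 014868) made the deposited intensities, with background subtracted and trends removed within each array. The authors' value table, linear intensities with medians of 111.5 to 112.0, was normalized in a way that the sources used here do not give. The other columns are flags and spot types, per the file headers. All 4 arrays lie on 1 slide, WT at positions 1 and 2 and IKKb(EE)IEC at 3 and 4, so genotype cannot be told apart from position.

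The deposited intensity was taken to log2, and the 75th percentile of its array subtracted. Control spots and non-uniform spots were left out, and spots of a probe averaged. Probes well above background on at least 2 arrays entered (16394), and the brightest probe stood for a gene (12437). Names follow RefSeq accessions (GRCm38.p6) for 24375 probes. The test was limma 3.58.1 (lmFit, eBayes; R 4.3.3), two-sided, with Benjamini-Hochberg adjustment over all genes. Limma was tested on simulated data. Alternatives were the median shift, quantile normalization, normexp, the authors' value table, filters, the mean over probes, a replicate block and leaving out each array. Beside all members, the text names from each list up to 4 called genes with the largest change. Of the genes this rule names, 1 is not reported here. Others, such as Jdp2, Ier2, Mapk14, Srf, Ccnd1 and Dnajb1, were chosen after their values were seen. The members and lists were chosen with earlier results of these data known. Arrays give no counts, so their number limits the precision. The labels call the samples of a genotype replicates. The p-values rest on the spread between these samples, which limma draws toward the spread typical of all genes.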

Additional observations from a re-analysis of the deposited data

How the results depend on the processing

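Against 1 called member, 4 were called with the median shift (Junb, Fosb, Egr1 and Ier3), 2 with the repaired normexp correction, which was added after the data were seen, and 0 with unrepaired normexp, without a filter and with the mean over probes. Limma with the median shift gave every gene the same SE (0.32). The count was 0 to 6 when 1 array was left out. Over all genes, 1893 were called, 0 with unrepaired normexp (171 at an unadjusted p below 0.05), 843 without a filter, and 247 to 6175 with 1 array left out. Unrepaired normexp fitted a background mean of -104 and -373 on 2 arrays. Higher genes made up 52.7% of the calls, 63.2% with the median shift and 71.7% with repaired normexp, but 40.2% with the filter on all 4 arrays (770 higher, 1147 lower), and 42.6% and 45.8% without WT replicate 1 and 2. With repaired normexp the median difference of all genes was -0.01 in place of -0.12. With 1 array left out, Fos ranged from -0.40 (WT replicate 2 left out) to 0.80 and Atf3 from -0.058 (the same array) to 0.28. The sign of Atf3 turned also with IKKb(EE)IEC replicate 2 left out (-0.01) and with unrepaired normexp (-0.0034). The other 7 measured members kept their sign under every alternative run. The replicate numbers are shared between genotypes, and the labels do not say whether they mark a common litter or day (correlation of deviations 0.11). With them as a replicate block 1500 genes and 1 member were called, Ier3 (adjusted p by limma = 0.0291), while Junb (adjusted p = 0.0513), Hspd1 (0.0507) and Hsp90aa1 (0.0600) missed the threshold, which left 2 heat shock genes called in place of 4. Where 1 array is left out, the lone array is assumed to vary like the other genotype. The smallest difference over the alternatives was 0.81 for Atf5, 0.49 for Plk3, 1.17 for Phlda1, 0.69 for Nab1, -0.68 for Nfil3 and -0.28 for Zfp36l2. For Fosb, Ier3, Arc, Hspa1a, Mmp9 and Mmp13, signals near the background limit the size of the difference.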
